A study of Rattus norvegicus with 7 samples.

Results

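The cell cycle and DNA replication genes described here are 39 genes chosen by symbol, all of which were found, each with a single row, among the 32852 genes of the normalised expression table. They fall into 20 genes of mitosis, 10 genes of DNA replication and nucleotide supply, and 9 genes of G1 control (cyclins, their kinases and E2f1). All 39 had a mean normalised count of at least 10 and entered the test. The samples were cultures of wild type rat oligodendrocyte progenitor cells, the dividing precursors of the myelin-forming cells, taken from postnatal day 7 brain. About 40000 cells per well of a plate with 12 wells received either a control siRNA (4 libraries) or one directed at RNLTR12-int, a rat endogenous retrovirus (3 libraries), with a lipid reagent. The medium was switched at transfection to one that drives differentiation, and RNA was taken 4 to 5 days later. The labels call the libraries biological replicates but name no animal, culture or day, so the spread between them may be partly technical. The level of RNLTR12-int was not analysed here, so its knockdown is unchecked. The cultures are mixed, since astrocyte and microglia markers were detected in every library.

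A cell that divides first passes G1, in which D-type cyclins with Cdk4 or Cdk6, and then E-type cyclins with Cdk2, inactivate the retinoblastoma protein and free E2F factors. E2F factors switch on replication genes before S phase, among them the Mcm helicase subunits, the sliding clamp Pcna and the enzymes that make deoxynucleotides. Mitosis genes follow in G2 through another promoter element, the cell cycle homology region, read by the DREAM and B-Myb complexes, usually beside boxes bound by NF-Y. Oligodendrocyte progenitors leave the cell cycle as they differentiate, so transcripts of mitosis and replication genes mark the cells of a culture that still divide.

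Promoters are shown first, because mitosis and replication genes are followed below as separate groups and differ in these letters. The windows run from 250 bases before to 50 bases after the annotated start, come from RefSeq (build GRCr8, whereas the submitters' processing notes name Rnor_6.0 for the expression values) and were matched by symbol for 28 of the 39 genes. The following motifs were searched on both strands: the cell cycle homology region as TTTGAA, the NF-Y box as CCAAT, and E2F sites as TTTGGCGC, TTTCCCGC, TTTCGCGC, TTTGGCGG, TTTCCCGG or TTTGGGCG. Capitals mark every match on either strand. The mitosis examples are the proliferation antigen Mki67 (chr1:199952544-199952843, minus strand), the mitotic kinase Cdk1 (chr20:19265043-19265342, plus strand) and the spindle midzone protein Prc1 (chr1:143659231-143659530, plus strand). In Mki67 a homology region at -99 and an NF-Y box at -94 share a base, counted from the annotated start.
Mki67: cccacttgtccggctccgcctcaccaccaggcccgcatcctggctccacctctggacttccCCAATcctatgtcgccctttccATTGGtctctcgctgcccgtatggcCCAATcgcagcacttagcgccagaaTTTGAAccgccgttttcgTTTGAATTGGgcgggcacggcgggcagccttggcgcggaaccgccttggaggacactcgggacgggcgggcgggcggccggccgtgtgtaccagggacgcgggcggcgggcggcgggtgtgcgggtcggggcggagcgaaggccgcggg
Cdk1: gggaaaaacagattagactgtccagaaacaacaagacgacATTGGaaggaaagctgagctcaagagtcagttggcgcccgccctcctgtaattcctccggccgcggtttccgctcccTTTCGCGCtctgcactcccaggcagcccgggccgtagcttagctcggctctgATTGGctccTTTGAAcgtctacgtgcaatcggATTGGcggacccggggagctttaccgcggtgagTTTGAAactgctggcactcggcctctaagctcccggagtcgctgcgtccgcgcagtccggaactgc
Prc1: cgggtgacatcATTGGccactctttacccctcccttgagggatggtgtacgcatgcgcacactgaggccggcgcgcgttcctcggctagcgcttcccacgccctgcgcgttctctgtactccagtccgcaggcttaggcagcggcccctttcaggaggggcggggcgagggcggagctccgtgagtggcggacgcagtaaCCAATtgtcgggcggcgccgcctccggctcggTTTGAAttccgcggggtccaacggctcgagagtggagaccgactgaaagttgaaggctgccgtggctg

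The replication examples are the helicase subunits Mcm3 (chr9:30733697-30733996, minus strand) and Mcm5 (chr19:13488563-13488862, plus strand), and thymidylate synthase, Tyms (chr9:120776034-120776333, minus strand). Tyms is shown because its values took a course of their own. In Mcm5 the E2F matches at -213 and -209 overlap and a further match lies at -8.
Mcm3: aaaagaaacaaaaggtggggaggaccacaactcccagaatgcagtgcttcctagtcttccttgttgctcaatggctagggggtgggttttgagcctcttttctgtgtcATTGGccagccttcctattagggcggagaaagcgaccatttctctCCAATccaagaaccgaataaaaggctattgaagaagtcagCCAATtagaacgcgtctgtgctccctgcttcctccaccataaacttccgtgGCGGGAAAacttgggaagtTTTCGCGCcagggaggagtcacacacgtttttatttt
Mcm5: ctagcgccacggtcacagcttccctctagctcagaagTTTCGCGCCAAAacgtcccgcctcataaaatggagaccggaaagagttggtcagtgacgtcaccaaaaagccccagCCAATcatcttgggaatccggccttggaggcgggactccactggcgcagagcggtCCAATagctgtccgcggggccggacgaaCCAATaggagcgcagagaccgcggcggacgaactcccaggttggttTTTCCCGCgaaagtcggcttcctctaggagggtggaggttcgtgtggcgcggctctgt
Tyms: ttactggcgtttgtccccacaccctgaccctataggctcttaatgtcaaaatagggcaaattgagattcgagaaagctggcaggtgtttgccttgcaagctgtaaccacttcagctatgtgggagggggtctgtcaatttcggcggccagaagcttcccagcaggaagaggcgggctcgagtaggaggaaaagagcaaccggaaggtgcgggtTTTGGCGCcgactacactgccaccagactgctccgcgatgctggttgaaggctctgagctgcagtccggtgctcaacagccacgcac

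A homology region was present in 10 of the 16 mitosis promoters (62.5%), against 1 of 8 replication promoters (12.5%), 0 of 4 G1 promoters and 18.1% of 27457 promoters of the same length. E2F letters were present in 6 of 8 replication promoters (75.0%) and 3 of 16 mitosis promoters (18.8%), against 4.30% of all promoters. NF-Y boxes were common to both classes, in 13 of 16 mitosis and 6 of 8 replication promoters, against 37.7% of all. Further genes of the pathway had a like division. Among 36 further mitosis promoters 72.2% held a homology region and 8.33% E2F letters, and among 36 further replication promoters 13.9% and 61.1% did. A match is a string of letters and was not tested for binding.

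**Figure D1:**
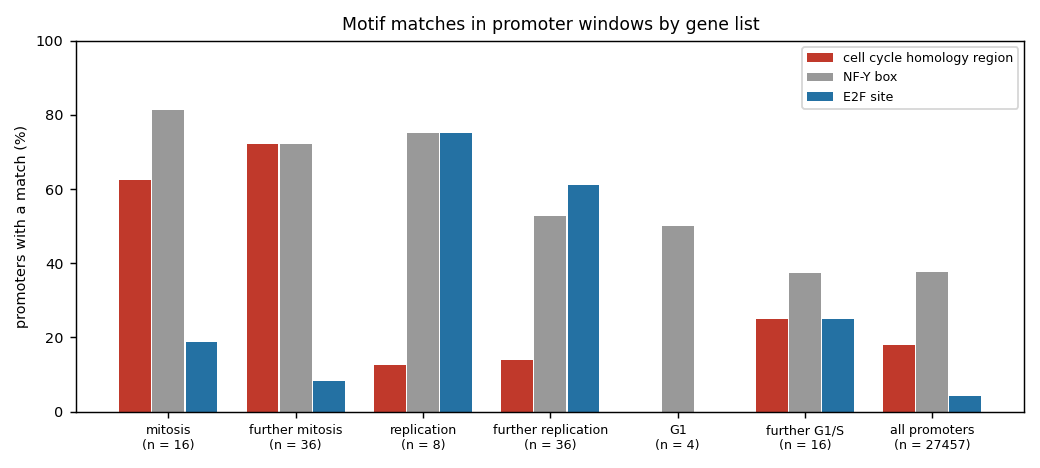
Share of promoter windows with a match to each motif (y axis, percent) for the mitosis, replication and G1 genes, the further genes of each class, and all promoters, with the number of promoters under each set. The homology region is found in 62.5% of mitosis promoters and 12.5% of replication promoters, and E2F letters in 18.8% and 75.0%.

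All members were measured at ample depth. Reads recovered from the normalised counts numbered 22523873 to 61803693 per library, and the lowest member, the survivin gene Birc5, had 65.8 to 122 normalised counts. Markers of astrocytes and microglia divided the libraries along other lines than the siRNA. The mean log2(normalised count + 1) of 10 astrocyte markers was 13.91 in control replicate 1, 13.63 in control replicate 2 and 14.06 in siRNLTR12-int replicate 1, whereas the remaining 4 libraries had 12.16 to 12.27. None of these 10 markers was at 0 in any library, and their summed normalised count spanned 136739 to 576297 in controls and 130659 to 638090 in siRNLTR12-int libraries. The 9 microglia markers measured, also at 0 in no library, summed to 1577 to 14675 in controls and 2355 to 17277 in siRNLTR12-int libraries. The 10 markers of myelinating oligodendrocytes were all lower in each siRNLTR12-int library than in each control, with mean levels of 10.34 to 11.02 against 12.18 to 14.45. Progenitor markers such as Pdgfra and Cspg4 were present in all 7 libraries, with a mean level of the 9 measured of 13.84 to 15.20. Of the 9, 2 (Cspg5 and Ptprz1) were higher in each siRNLTR12-int library than in each control, and the groups of the others overlapped. Over all genes tested, groups lay apart with siRNLTR12-int higher in 4.09% and lower in 3.59%.

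No cell cycle gene passed the test of siRNLTR12-int against control. With limma on log2(normalised count + 1), 0 of 39 members had an adjusted p under 0.05, where 0% of the 18225 genes tested did. At an unadjusted p under 0.05, 3 members were higher (Tyms, Ccnd3 and Cdk6) and 1 was lower (E2f1), against 3.33% and 2.98% of all genes. With edgeR and with DESeq2 on the recovered reads, 0 members passed. In the authors' deposited table, which called 0.384% of genes higher and 0.368% lower, 0 members passed and the smallest adjusted p of a member was 0.26 (Ccnd3). The DESeq2 fit gave the same smallest value, and the submitters' notes name DESeq2. That fit and the deposited table are therefore not separate results. Log2 differences were below 0 in 31 of 39 members, against 49.0% of all genes, with a median of -0.10 against 0.01.

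**Figure D2:**
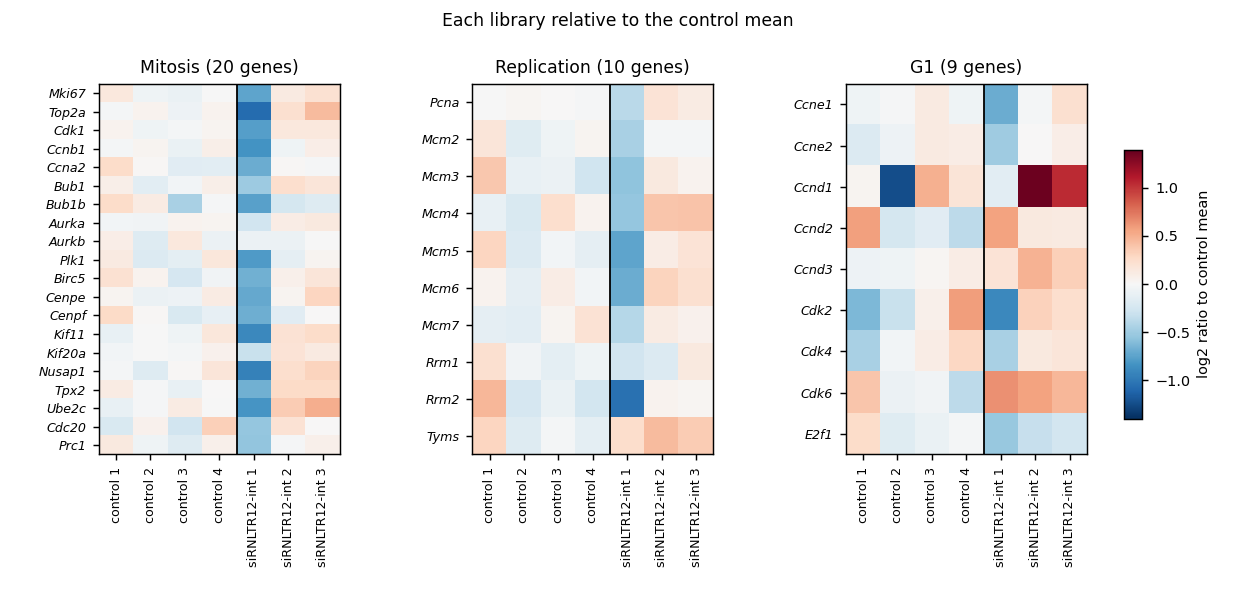
Each cell is the log2 ratio of a library to the control mean for 1 gene (colour scale, red higher and blue lower), with genes as rows and libraries as columns, and the line dividing control from siRNLTR12-int libraries. The column of siRNLTR12-int replicate 1 is blue for nearly all mitosis and replication genes, with Aurkb close to the control mean and Tyms above it, while replicates 2 and 3 are at or above the control mean for most.

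The siRNLTR12-int libraries differed from each other more than the groups did. Mki67 (ENSRNOG00000028137), a nuclear protein of dividing cells, had 10135, 8784, 8599 and 9119 normalised counts in the 4 controls, in the order of their replicate numbers. The siRNLTR12-int libraries, in the same order, had 5509, 9994 and 10641. Replicate 1 lay far below every control, and replicate 2 was within the control range with replicate 3 above it. The group means were 9159 ± 685.2 (SD, n = 4) and 8715 ± 2795 (SD, n = 3), and the log2 difference was -0.13 (95% interval -0.67 to 0.41, limma adjusted p = 0.984). In these bulk libraries fewer dividing cells and less transcript per dividing cell cannot be told apart.

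Enzymes and motors that condense and move chromosomes had the same shape. Top2a, the topoisomerase that untangles replicated DNA, had 3784, 3973, 3675 and 3983 normalised counts in controls and 1828, 4518 and 5231 in siRNLTR12-int replicates 1 to 3. Its replicate 1 was at 47.4% of the control mean while replicates 2 and 3 exceeded every control. Kif11, the motor that separates spindle poles, had 1164, 1244, 1201 and 1393 in controls and 670, 1436 and 1491 in siRNLTR12-int libraries. Nusap1, which bundles spindle microtubules, had 1754, 1573, 1797 and 2003 against 925, 2105 and 2204. In Kif11 and Nusap1, as in Top2a, the groups overlapped only because 1 siRNLTR12-int library was below and 2 were above all controls. Tpx2, a spindle assembly factor, stood at 62.9%, 120.0% and 120.4% of its control mean in replicates 1 to 3, and the kinetochore motor Cenpe at 60.8%, 102.8% and 123.3%. Kif20a, a motor of the cleavage furrow, was nearer its controls in replicate 1, at 80.8% of the control mean, and Prc1 stood at 68.3%, 99.0% and 105.4%.

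Among the kinases and cyclins that drive mitosis, Cdk1 had 680, 631, 647 and 674 normalised counts in controls and 385, 727 and 727 in siRNLTR12-int libraries. Its control spread was narrow (658.3 ± 22.99, SD, n = 4), and replicates 2 and 3 lay just above it. Its partner Ccnb1 had 589, 618, 564 and 639 in controls and 337, 580 and 641 after the siRNA, and Ccna2, the cyclin of S and G2 phase, stood at 61.8%, 100.8% and 99.0% of the control mean. Plk1, a kinase of mitotic entry, had 57.7%, 91.7% and 102.4%, so replicates 2 and 3 were near the control mean here. Aurka, the spindle pole kinase, was at 82.8% in replicate 1. Aurkb, the kinase of the chromosomal passenger complex, was the exception, with 7262, 6047, 7571 and 6427 normalised counts in controls and 6436, 6464 and 6794 in siRNLTR12-int libraries, all inside the control range. The narrowest intervals among the mitosis genes were those of Aurkb (log2 difference -0.05, 95% interval -0.30 to 0.20, limma adjusted p = 0.988) and Aurka (-0.01, -0.30 to 0.27, limma adjusted p = 0.998).

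Genes of the spindle checkpoint and of anaphase differed from each other in replicates 2 and 3. The checkpoint kinase Bub1 stood at 70.2%, 117.9% and 112.3% of its control mean in replicates 1 to 3, whereas Bub1b stood at 58.8%, 84.2% and 88.4%. Bub1b had the most negative log2 difference of the 39 genes, -0.37 (95% interval -0.88 to 0.14, limma adjusted p = 0.89), although replicates 2 and 3 (746 and 783) lay above control replicate 3 (646). Ube2c and Cdc20 serve the anaphase-promoting complex, Ube2c as its ubiquitin-conjugating enzyme and Cdc20 as its activator. Ube2c had 644, 683, 750 and 692 normalised counts in controls and 390, 887 and 983 after the siRNA, the widest gap upward in replicate 3 (142.1% of the control mean). Cdc20 varied among controls themselves (521 to 791) and had 430, 719 and 629 in siRNLTR12-int libraries. The kinetochore protein Cenpf stood at 62.2%, 89.6% and 100.6% of its control mean, and Birc5 at 62.6%, 104.8% and 112.8%.

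Over all 20 mitosis genes, siRNLTR12-int replicate 1 was the lowest of the 7 libraries in 19, with Aurkb the exception, at a median of 61.3% of the control mean. That library was the lowest in 17.7% of all genes tested, and below every control in 21.3%. Replicates 2 and 3 had medians of 108.1% and 110.0%. In 13 of the 20 genes replicate 1 lay below the control mean and both other replicates above it, against 24.3% of all genes. Replicates 2 and 3 were the most alike pair of libraries. The median chi-square per gene between their reads was 1.285, against 2.722 to 22.88 for other pairs. Their like positions may therefore not be separate observations, and the labels do not say whether they share a culture. A position of a single library has no replicate and was not tested.

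Replication genes followed, with smaller gaps. The 6 Mcm genes encode the ring-shaped helicase that opens the DNA, and siRNLTR12-int replicate 1 was the lowest library for each of them, at 59.7% (Mcm5) to 75.8% (Mcm7) of the control mean. Mcm6 had 1273, 1126, 1317 and 1199 normalised counts in controls and 756, 1520 and 1436 after the siRNA. Mcm4 had 1660, 1539, 2098 and 1852 against 1227, 2344 and 2363, and both genes exceeded every control in replicates 2 and 3. Mcm2, Mcm3 and Mcm5 differed from Mcm4, Mcm6 and Mcm7 in being highest in control replicate 1. Mcm5 had 1228 there against 872 to 967 in the other controls, with 594, 1070 and 1132 after the siRNA. Mcm2 was at 73.0%, 98.4% and 98.1% of the control mean in replicates 1 to 3, and Mcm3 at 67.8%, 109.9% and 103.3%.

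Pcna, the clamp that holds DNA polymerase, had the tightest controls of the replication genes, 2538, 2592, 2548 and 2510, and 1967, 2903 and 2748 in siRNLTR12-int libraries. Replicate 1 was thus below, and replicates 2 and 3 above, all controls. The log2 difference of Pcna was -0.02 (95% interval -0.36 to 0.31, limma adjusted p = 0.997). Ribonucleotide reductase makes deoxynucleotides from a large subunit, Rrm1, and a small one, Rrm2. Rrm2 had 657, 406, 446 and 397 in controls and 230, 494 and 487 after the siRNA, so its replicate 1 was at 48.3% of the control mean, while Rrm1 was at 83.2%. Control replicate 1, the highest library for both subunits, was also the library with the highest microglia marker level (9.78). The library with the next highest level, siRNLTR12-int replicate 1 (9.24), was the lowest for both subunits. The part of those cells was not tested.

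Tyms, which makes thymidylate, was not low in replicate 1. It had 1085, 779, 867 and 800 normalised counts in controls and 1050, 1201 and 1127 after the siRNA. Every siRNLTR12-int library exceeded 3 of the 4 controls, and control replicate 1 lay between replicates 1 and 3. The log2 difference was 0.36 (95% interval 0.03 to 0.69), with a limma adjusted p of 0.76 and 0.633 in the authors' deposited table. Its two-sided exact permutation p was 0.0857. Over the 10 replication genes replicate 1 was the lowest library in 9, with a median of 70.8% of the control mean, and replicates 2 and 3 had medians of 109.2% and 109.1%.

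**Figure D3:**
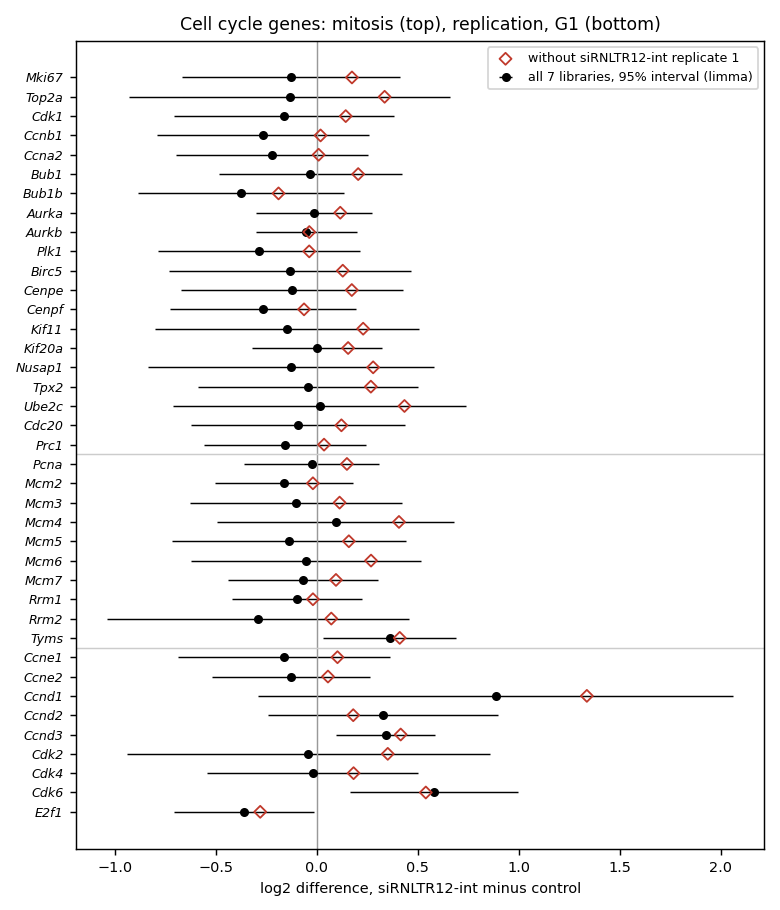
Log2 difference of siRNLTR12-int minus control (x axis) for each of the 39 genes, with filled points and 95% intervals from limma for all 7 libraries and open diamonds for the fit without siRNLTR12-int replicate 1. For most mitosis and replication genes the point lies below 0 and the diamond above it, while Ccnd1, Ccnd2, Ccnd3, Cdk6 and Tyms lie above 0 and E2f1 below 0 in both.

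The sign of the mitosis and replication medians thus rested on siRNLTR12-int replicate 1. The median log2 difference of the mitosis genes was -0.13 in all 7 libraries and 0.14 without that library, and that of the replication genes -0.08 and 0.13. Without it 32 of the 39 members had a positive log2 difference, against 50.3% of all genes, and 0 passed with limma (smallest adjusted p 0.334).

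The cell makeup of the libraries is set beside this gap. The mean level of the mitosis genes was 10.33, 10.24, 10.18 and 10.32 in controls and 9.61, 10.36 and 10.43 after the siRNA. That of the replication genes was 10.55, 10.24, 10.37 and 10.32 against 9.90, 10.53 and 10.53. Control replicate 1 resembled siRNLTR12-int replicate 1 in astrocyte level (13.91 and 14.06), microglia level (9.78 and 9.24) and progenitor level (13.84 and 13.99). The same pair differed in the level of myelinating oligodendrocyte markers (12.32 and 11.02). Control replicate 1 had a mitosis level of 10.33 where the other had 9.61. Within the 3 libraries high in astrocyte markers the only siRNLTR12-int library was therefore the low one. In the 4 others the 2 siRNLTR12-int libraries had higher mitosis levels than the 2 controls, and the median log2 difference was 0.14 for mitosis and 0.22 for replication genes. In 4 of the 9 microglia markers and 8 of the 10 astrocyte markers siRNLTR12-int replicate 1 exceeded every control. The part of these cells in the gap was not tested.

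**Figure D4:**
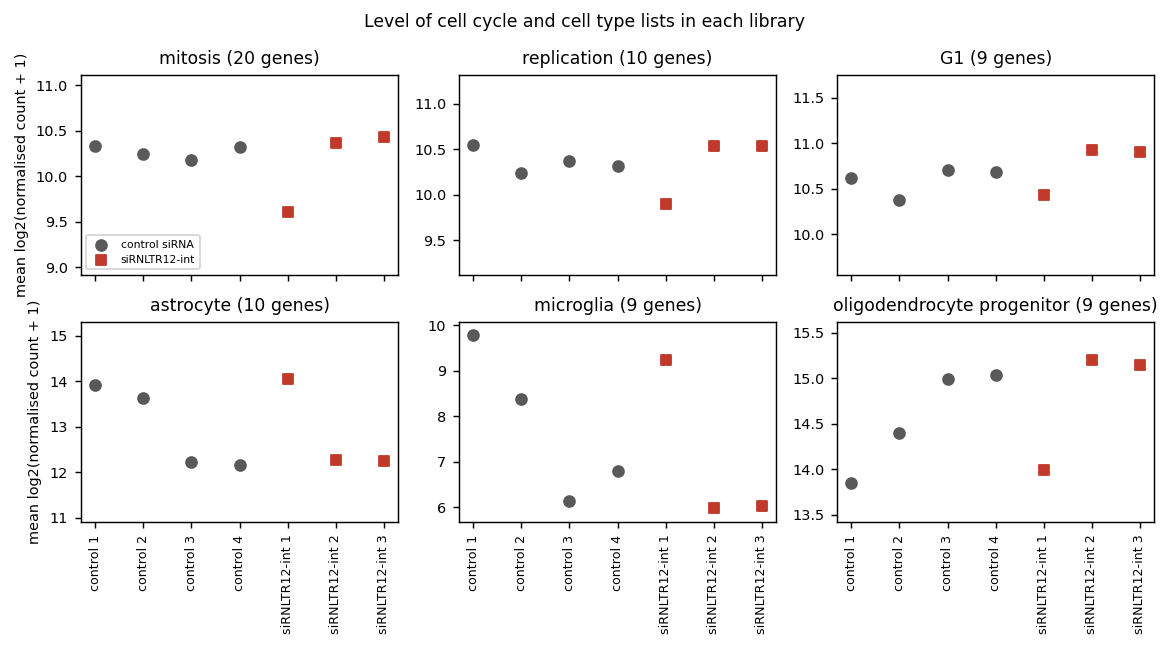
Mean log2(normalised count + 1) of each list (y axis, with a range set for each panel) in the 7 libraries (x axis), grey circles for control and red squares for siRNLTR12-int. Mitosis and replication levels are lowest in siRNLTR12-int replicate 1, whereas astrocyte, microglia and progenitor levels of that library lie near those of control replicate 1.

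G1 genes did not move as a block. D-type cyclins connect growth factor signals to the cell cycle. Ccnd1 had 15569, 6432, 21465 and 17251 normalised counts in controls and 13694, 39287 and 31277 after the siRNA. Replicates 2 and 3 stood above every control, at 258.8% and 206.1% of the control mean, and replicate 1 within the control range at 90.2%. The log2 difference of Ccnd1 was the largest of the members, 0.88 (95% interval -0.29 to 2.06, limma adjusted p = 0.876), and the authors' deposited table gave 0.89 (adjusted p = 0.751). Ccnd2 split the other way. It was highest in control replicate 1 and siRNLTR12-int replicate 1, at 3918 and 3913, against 2044 to 2370 in the other controls and 2910 and 2870 in replicates 2 and 3.

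Ccnd3 was higher in every siRNLTR12-int library than in every control. It had 1620, 1627, 1727 and 1824 normalised counts in controls and 1937, 2389 and 2146 after the siRNA, or 1699 ± 96.25 (SD, n = 4) and 2157 ± 226.2 (SD, n = 3). The log2 difference was 0.34 (95% interval 0.10 to 0.59, limma adjusted p = 0.694), and the two-sided exact permutation p was 0.0286, the smallest that 35 divisions of 7 libraries can give. Cdk6, a kinase partner of the D-type cyclins, had 1070, 774, 789 and 635 in controls and 1271, 1210 and 1125 after the siRNA. Its groups did not overlap either, with a log2 difference of 0.58 (95% interval 0.16 to 0.997, limma adjusted p = 0.691, two-sided exact permutation p = 0.0571). Groups apart with siRNLTR12-int higher were found for 2 of 39 members, Ccnd3 and Cdk6, against 4.09% of all genes. Neither passed over all genes in limma or in the authors' deposited table, where their adjusted p was 0.26 and 0.305.

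Cdk4, the other kinase partner, and Cdk2, which acts with E-type cyclins, showed no group difference beyond the spread of controls. Cdk2 had 1253, 1559, 2028 and 2899 normalised counts in controls and 1038, 2429 and 2272 after the siRNA, and Cdk4 had 1848, 2472, 2725 and 3092 against 1856, 2791 and 2861. For both genes control replicate 1 and siRNLTR12-int replicate 1, rich in astrocyte and microglia markers, were the 2 lowest libraries, and the part of those cells was not tested. The E-type cyclins resembled mitosis genes in replicate 1. Ccne1 had 306, 315, 347 and 307 in controls and 197, 313 and 374 after the siRNA, and Ccne2 stood at 70.9%, 100.4% and 106.7% of its control mean.

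E2f1, the transcription factor that activates replication genes, was lower in every siRNLTR12-int library than in every control. It had 607, 449, 473 and 497 normalised counts in controls and 351, 404 and 425 after the siRNA. The log2 difference was -0.36 (95% interval -0.71 to -0.01, limma adjusted p = 0.78, two-sided exact permutation p = 0.0571), and the authors' deposited table gave -0.36 (adjusted p = 0.605). It was the only member apart in this direction, 1 of 39, against 3.59% of all genes. E2f1 lay below its control mean in all 3 siRNLTR12-int libraries, at 69.3%, 79.7% and 83.9%.

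**Figure D5:**
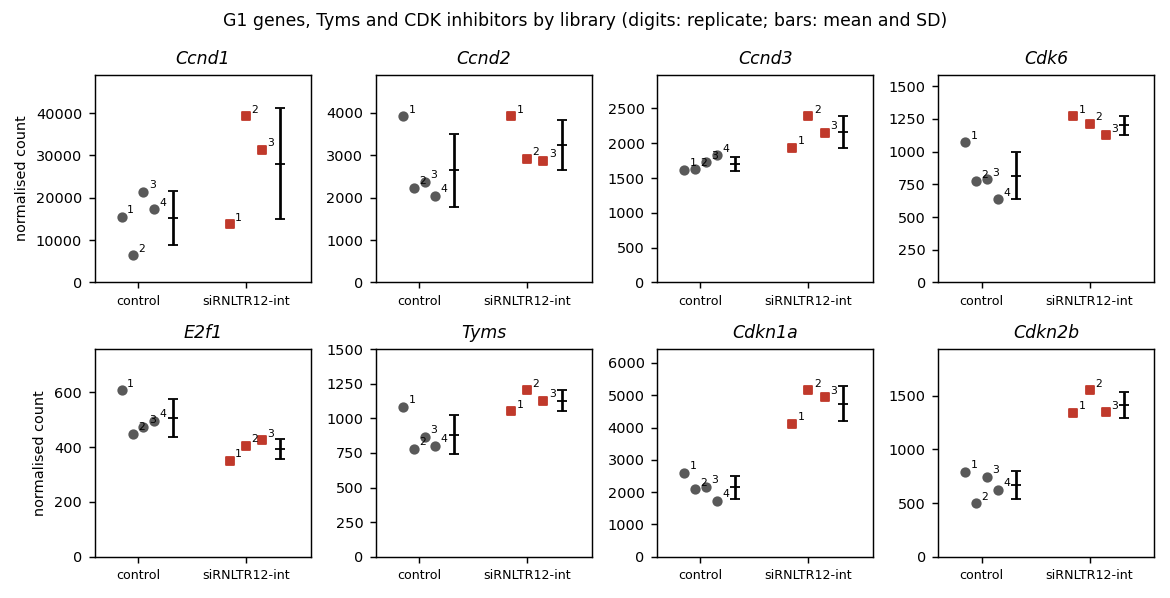
Normalised counts (y axis, from 0) of 5 G1 genes, Tyms and 2 inhibitors of cyclin-dependent kinases in control (grey circles) and siRNLTR12-int libraries (red squares), with the replicate number beside each point and bars for mean and SD. Groups do not overlap for Ccnd3, Cdk6, E2f1, Cdkn1a and Cdkn2b, and do for Ccnd1, Ccnd2 and Tyms.

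Some G1 genes and Tyms passed in fits that gave the astrocyte-rich libraries no weight or little. In the 4 libraries low in astrocyte markers, a comparison of 2 against 2 added after the data were seen, 4 members were higher with limma: Ccnd1 (log2 0.87, adjusted p = 0.0187), Cdk6 (0.72, 0.0212), Tyms (0.48, 0.0306) and Ccnd2 (0.39, 0.0492), where 4.78% of genes were called higher. The siRNLTR12-int side of this comparison was replicates 2 and 3, the most alike pair of libraries. They may not be separate observations, in which case these p-values are too small. Library weights estimated from the data were lowest for siRNLTR12-int replicate 1 (0.224) and highest for that same pair (2.853 and 5.713). With these weights Cdk6 and Tyms passed upward (limma adjusted p = 0.0315 and 0.037), where 2.50% of genes did. Over the 20 alternatives the adjusted p of these genes ran from those values, or for Ccnd3 from 0.0549 and for E2f1 from 0.163, up to 1.

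Among the cell cycle genes listed here, only inhibitors of cyclin-dependent kinases, which hold cells in G1, passed in the authors' deposited table. Of the 6 inhibitors measured, 5 had a positive log2 difference and 2 passed there, against 0.384% of all genes called higher. Cdkn1a, the p21 inhibitor induced by p53, had 2597, 2093, 2175 and 1742 normalised counts in controls and 4121, 5151 and 4933 after the siRNA, and the authors' deposited table gave a log2 rise of 1.14 (adjusted p = 4.904e-06). Cdkn2b, an inhibitor of Cdk4 and Cdk6, had 792, 499, 745 and 623 in controls and 1342, 1548 and 1344 after the siRNA, and rose by 1.09 in that table (adjusted p = 0.000428). With limma 0 of 6 passed (2 higher at an unadjusted p under 0.05, against 3.33% of all genes), with an adjusted p of 0.647 for both. Cdkn1a and Cdkn2b were thus higher in all 3 siRNLTR12-int libraries, in 2 of which Mki67 was near or above its controls. Cdkn1b, the p27 inhibitor, also lay apart (3412 to 4038 in controls, 4071 to 4379 after the siRNA, limma adjusted p = 0.792), and this direction was found in 4.09% of all genes. Cdkn1c, the p57 inhibitor, had 1072, 1966, 4108 and 4856 in controls and 1037, 2760 and 2795 after the siRNA, so the 3 libraries rich in astrocyte markers were the lowest. Among the other 4 libraries both siRNLTR12-int values lay below both controls, with a log2 difference of -0.69 (limma adjusted p = 0.0117, and 0.984 over all 7 libraries, with a range up to 1 over the alternatives). That comparison, added after the data were seen, called 1415 genes in either direction. Its 2 siRNLTR12-int libraries, replicates 2 and 3, may not be separate observations.

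Other genes of the pathway were measured as well. Of 40 further mitosis genes 39 were measured, 0 passed with limma (0 at an unadjusted p under 0.05) and 34 had a negative log2 difference. In 35 of the 39 siRNLTR12-int replicate 1 was the lowest library, at a median of 63.9% of the control mean, with replicates 2 and 3 at 106.0% and 112.6%. The kinase Nek2 had the most negative log2 difference among them (-0.63, limma adjusted p = 0.918), with 14.6 normalised counts in replicate 1 against 32.7 to 60.3 in controls. Bub3, a checkpoint protein, and Smc4, a condensin subunit, were the most positive with values of 0.26 and 0.14 (limma adjusted p = 0.918 and 0.981). Of 42 further replication genes 41 were measured and 0 passed with limma (1 lower at an unadjusted p under 0.05). Replicate 1 was the lowest library in 31 of the 41, at a median of 75.8%.

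Groups lay apart downward for 2 of the 41 further replication genes, a share near the 3.59% of all genes. Rfc5, a subunit of the clamp loader, had 1156, 960, 1070 and 1020 normalised counts in controls and 898, 804 and 892 after the siRNA (log2 -0.28, limma adjusted p = 0.737). The fork protein Tipin, named after its values were seen, was the other gene. Gins2, a helicase subunit, and Orc1, which marks origins, were lowest in replicates 2 and 3 rather than in replicate 1, Gins2 with 2216, 1528 and 1584 against 1793 to 2842 in controls. Among 21 further G1/S regulators 0 passed with limma (1 higher at an unadjusted p under 0.05), with 11 positive and 10 negative. Wee1, in this list although it restrains the mitotic kinase Cdk1, was higher in each siRNLTR12-int library (1432, 1263 and 1393) than in each control (662 to 1192). Its log2 difference was 0.60 (limma adjusted p = 0.712). E2f6, a repressor of the E2F family, was apart too (log2 0.30, limma adjusted p = 0.832), so 2 of 21 were, against 4.09% of all genes. Tfdp2, a partner of E2F factors, had a log2 difference of -0.48 (limma adjusted p = 0.796).

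Likeness to Mki67 across libraries differed between the classes. Over the 7 libraries, which share only this study, Pearson's r of log2 values with Mki67 had a median of 0.93 over the other 19 mitosis genes, 0.86 over the replication genes and 0.51 over the G1 genes, and -0.00 over all genes. The r was above 0.9 in 13 of 19 mitosis genes, against 0.68% of all genes. Without siRNLTR12-int replicate 1 the medians were 0.56, 0.62 and 0.23, so much of the likeness came from that library. Genes outside the lists most like Mki67 included Cenpi (r = 0.99), a kinetochore protein, Tacc3 (0.99), a spindle protein, Esco2 (0.99), an acetyltransferase of cohesin, and Fam111a (0.99). They were chosen for this likeness, so their r is a description. Cenpi had 722, 650, 633 and 637 normalised counts in controls and 404, 744 and 775 after the siRNA. Ccnd2 (r = -0.31) and Cdk6 (-0.19) were the members with a negative r, and both turned positive without siRNLTR12-int replicate 1 (0.73 and 0.82). Without it 4 other G1 genes turned from positive to negative: Ccne2 (0.76 to -0.24), Cdk2 (0.61 to -0.02), Cdk4 (0.51 to -0.20) and E2f1 (0.60 to -0.03).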

How the data were processed

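RNA of 7 libraries (4 control, 3 siRNLTR12-int; RNA integrity 9 to 10) was depleted of ribosomal RNA for strand-specific sequencing of both fragment ends, as the labels' protocols state. Salmon, DESeq2 and build Rnor_6.0 are named in the submitters' processing notes, with no versions. The authors deposited normalised counts per gene (a signal divided by each library's size factor), together with a comparison table with the mean signal, log2 fold change and its error, a test score, p-value and adjusted p-value, per the file headers. All values above 0 were whole multiples of 1 step per library (100% within 0.01), giving back 22523873 to 61803693 reads. Whole numbers also arise when estimated counts are rounded.

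Limma 3.58.1, with a trend and two-sided tests, was fitted to log2(normalised count + 1) of the 18225 genes whose mean reached 10, adjusted by Benjamini-Hochberg with a threshold of 0.05. The log2 scale with a pseudocount understates changes of low genes. Single genes were also compared by an exact permutation test. The script was tested on simulated data without the division in astrocyte markers, so that test does not show how the fit handles it. Alternatives changed the pseudocount (0.25 or 8), the filter (none, or a mean of 50), the scaling (TMM or upper quartile), the weights of libraries and the variance trend. Others left out 1 library, added the replicate number as a block, or tested recovered reads with edgeR 4.0.16 and DESeq2 1.42.0. There were 2 added after the data were seen: the 4 libraries low in astrocyte markers, and that division as a block.

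The members, lists and tests were chosen with earlier results of these data known. Named genes are the members, up to 3 genes per direction with the smallest limma p of each pathway list, and the 5 genes most like Mki67 with a mean of at least 100, of which 1 is not reported here. How the authors divided reads among related genes is not stated in the sources used here. Listed genes without a row (Ccnb2, Chek1 and Cdkn2d, and the markers Itgam, Lhfpl3, Pecam1 and Col1a2) were not analysed here.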

Additional observations from a re-analysis of the deposited data

How the results depend on the processing

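Counts of calls depended on how the libraries were weighted. Limma called 0 of 18225 genes and 0 of 39 members in all 7 libraries (1149 genes at an unadjusted p under 0.05), edgeR called 0 and 0, and DESeq2 called 141 and 0. Array weights gave 839 genes and 2 members, with medians of 0.12 for mitosis and 0.17 for replication genes, the sign turned. The 4 libraries low in astrocyte markers gave 1415 genes and 4 members, with medians of 0.14 and 0.22, the sign turned again. The other pseudocounts, filters, TMM and no trend changed no member's sign, and upper-quartile rescaling turned 2 of 39. With the astrocyte division as a block 0 genes passed and the medians were -0.19, -0.12 and -0.10 for mitosis, replication and G1 genes.

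Leaving out each library in turn called 0 to 2 genes and 0 members. The median of the mitosis genes ranged from -0.31 to 0.14, that of the replication genes from -0.20 to 0.13 and that of the G1 genes from -0.16 to 0.18, and the positive values of the first 2 came from leaving out siRNLTR12-int replicate 1, which turned the sign of 24 of 39 members. The G1 median, -0.02 in all libraries, was 0.18 without control replicate 4 and 0.18 without siRNLTR12-int replicate 1.

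With the replicate block the G1 median was 0.18 and the call counts were unchanged. Control replicate 4 has no siRNLTR12-int library of its number, so under the block it did not add to the group difference. The medians of mitosis, replication and G1 genes were therefore the same as without that library, and are not a separate result. The numbers are not shown to pair samples: deviations of same-numbered libraries correlated at 0.75, -0.19 and 0.63 for numbers 1, 2 and 3, across genes. Those of libraries with unlike numbers ran from -0.70 to 0.57, the latter for control replicate 3 with siRNLTR12-int replicate 2. With 3 libraries against 4, an interval of a typical member spans -0.62 to 0.42 on the log2 scale (medians of the bounds).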
